A study of Mus musculus with 9 samples.

Results

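Fibroblast growth factor (FGF) signaling was examined through 36 mouse genes that encode its ligands, its receptors, an adaptor and the genes that answer to or restrain it. They fell into 18 secreted ligands, 4 intracellular FGFs (Fgf11 to Fgf14), 4 receptors (Fgfr1 to Fgfr4) and 10 feedback and response genes (Spry1 to Spry4, Spred1, Spred2, Dusp6, Etv4, Etv5 and the adaptor Frs2). Their accessible regions were the distinct regions of the control list that carried the symbol of one of these genes, and a gene without such a row was counted as having no assigned region. The 36 genes had 47 of the 17164 distinct regions in the list. The study profiled accessible chromatin by ATAC-Seq, a method in which Tn5 transposase cuts and tags open DNA, in dissected hearts and pharyngeal mesoderm of mouse embryos at E8.75, when they had 6 somites. It asked what is lost when the transcription factor Isl1, or the SWI/SNF ATPase Brg1 in cells that express Isl1, is removed. There were 3 libraries from wild-type controls (wt), 3 from Isl1-/- embryos and 3 from Isl1Cre+/-/ Brg1fl/fl embryos. In the last group Cre is expressed from the Isl1 locus, so Brg1 is deleted only where Isl1 is or has been active, and 1 Isl1 allele carries Cre. The values used here come from 1 list for the control group, made of regions found in all 3 control libraries. It gives positions and no heights or counts, so the depth is unknown, no value has a replicate error, and no comparison with the mutants was made. Mutant libraries were not analysed here.

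FGF ligands are secreted proteins that bind receptor tyrosine kinases at the cell surface together with heparan sulfate. The active receptor phosphorylates the adaptor Frs2, which feeds the Ras-MAPK cascade, and the cascade raises transcription of ETS factors such as Etv4 and Etv5. The same signal induces its own brakes: Dusp6 dephosphorylates ERK, and Sprouty and Spred proteins dampen Ras-MAPK activity. In the early embryo Fgf8 and Fgf10 are expressed in pharyngeal mesoderm and the second heart field, the progenitors of the outflow tract and right ventricle.

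Sequences from 8 genes are shown because each of these genes had 3 or more regions (4.96% of coding genes did), and the accessible DNA away from its start is the part that gene annotation does not describe. Each is the central 300 bp of the widest region that lay more than 1 kb from a start and outside exons, on build mm9 (NCBIM37), plus strand. Capitals mark matches on either strand to short letter strings known from transcription factor motifs. The Isl1 string was CTAATG. The string for GATA factors was AGATAA. The NKX2 string was CAAGTG. The TEAD string was GGAATG. An ETS string, AGGAAG, was added after the sequences had been seen. Another ETS string, CCGGAA, and a T-box string, GGTGTGA, were searched as well and had no match in these windows. Matches are descriptions of letters and not binding sites, and none of the marked letters overlap each other in these windows.
Dusp6, 34022 bp upstream of its start (chr10:98691693-98691992): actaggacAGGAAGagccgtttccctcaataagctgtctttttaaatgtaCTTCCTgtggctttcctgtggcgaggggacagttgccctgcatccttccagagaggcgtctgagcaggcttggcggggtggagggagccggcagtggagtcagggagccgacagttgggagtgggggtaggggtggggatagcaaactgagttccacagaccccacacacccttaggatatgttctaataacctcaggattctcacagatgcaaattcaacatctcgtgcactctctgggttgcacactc
Spry2, 24019 bp upstream of its start (chr14:106319905-106320204): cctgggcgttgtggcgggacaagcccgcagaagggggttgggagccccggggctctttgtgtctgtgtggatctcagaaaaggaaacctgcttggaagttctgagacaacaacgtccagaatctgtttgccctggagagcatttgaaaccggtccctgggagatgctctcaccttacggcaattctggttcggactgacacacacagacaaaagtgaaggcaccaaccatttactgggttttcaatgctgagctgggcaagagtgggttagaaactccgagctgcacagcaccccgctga
Fgf10, 44470 bp downstream of its start (chr13:119547826-119548125): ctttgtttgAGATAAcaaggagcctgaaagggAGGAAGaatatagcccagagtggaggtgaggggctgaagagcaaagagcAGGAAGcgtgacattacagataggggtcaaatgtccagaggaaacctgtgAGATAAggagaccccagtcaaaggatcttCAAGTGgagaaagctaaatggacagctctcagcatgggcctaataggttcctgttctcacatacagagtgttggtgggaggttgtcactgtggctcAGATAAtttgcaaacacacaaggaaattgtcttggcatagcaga
Fgf14, 7200 bp downstream of its start (chr14:125068999-125069298): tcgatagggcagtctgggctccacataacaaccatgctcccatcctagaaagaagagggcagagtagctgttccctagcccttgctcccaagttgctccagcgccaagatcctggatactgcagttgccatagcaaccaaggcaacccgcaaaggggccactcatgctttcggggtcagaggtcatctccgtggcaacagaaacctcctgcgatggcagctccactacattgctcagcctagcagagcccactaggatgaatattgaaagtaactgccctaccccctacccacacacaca
Fgf12, 46817 bp downstream of its start (chr16:28518070-28518369): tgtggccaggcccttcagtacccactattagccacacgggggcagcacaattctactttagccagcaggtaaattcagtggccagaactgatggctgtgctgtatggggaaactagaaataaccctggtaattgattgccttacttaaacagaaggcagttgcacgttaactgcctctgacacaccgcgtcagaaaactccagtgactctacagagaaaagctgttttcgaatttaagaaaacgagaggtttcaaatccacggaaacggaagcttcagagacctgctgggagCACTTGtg
Spred2, 369665 bp upstream of its start (chr11:19454630-19454929): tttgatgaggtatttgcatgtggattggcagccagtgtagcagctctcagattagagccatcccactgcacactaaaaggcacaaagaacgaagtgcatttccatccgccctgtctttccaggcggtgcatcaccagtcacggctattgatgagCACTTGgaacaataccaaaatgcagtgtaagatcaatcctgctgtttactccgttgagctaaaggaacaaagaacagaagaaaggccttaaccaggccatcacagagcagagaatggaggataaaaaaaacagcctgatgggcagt
Fgf13, 13176 bp upstream of its start (chrX:56432291-56432590): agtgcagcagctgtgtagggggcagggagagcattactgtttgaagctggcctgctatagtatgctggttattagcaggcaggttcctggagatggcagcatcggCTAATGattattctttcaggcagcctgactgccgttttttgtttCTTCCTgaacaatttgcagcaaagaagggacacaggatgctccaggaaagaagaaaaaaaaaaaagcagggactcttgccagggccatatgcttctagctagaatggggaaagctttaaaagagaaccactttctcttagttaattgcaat
Spry1, 17306 bp downstream of its start (chr3:37556025-37556324): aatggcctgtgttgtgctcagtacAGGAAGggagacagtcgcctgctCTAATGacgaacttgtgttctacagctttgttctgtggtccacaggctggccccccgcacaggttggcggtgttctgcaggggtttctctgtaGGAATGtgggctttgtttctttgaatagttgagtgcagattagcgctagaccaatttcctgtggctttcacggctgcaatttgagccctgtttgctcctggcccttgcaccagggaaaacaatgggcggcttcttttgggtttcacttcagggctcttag
The Fgf10 window, from an intron, held 3 matches to the GATA-factor string, 2 to the added ETS string and 1 to the NKX2 string. The Spry1 window held the Isl1, TEAD and added ETS strings, 1 match each. The Fgf13 window held the Isl1 string and the added ETS string. The Dusp6 window held the added ETS string once on each strand. The Fgf12 and Spred2 windows held the NKX2 string once each. The Spry2 and Fgf14 windows had no match to any of these letters.

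The 300 bp directly upstream of the annotated start are shown for Dusp6 and Spry2, the genes with the widest start regions of the family, on build mm9 and in the direction of transcription.
Dusp6 promoter (chr10:98725565-98725864, plus strand): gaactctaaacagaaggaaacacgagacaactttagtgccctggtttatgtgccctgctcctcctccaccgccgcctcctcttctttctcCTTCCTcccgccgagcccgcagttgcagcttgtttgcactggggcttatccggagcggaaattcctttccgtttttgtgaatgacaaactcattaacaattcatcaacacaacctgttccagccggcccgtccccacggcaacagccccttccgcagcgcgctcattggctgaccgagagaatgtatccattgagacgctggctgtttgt
Spry2 promoter (chr14:106296037-106296336, minus strand): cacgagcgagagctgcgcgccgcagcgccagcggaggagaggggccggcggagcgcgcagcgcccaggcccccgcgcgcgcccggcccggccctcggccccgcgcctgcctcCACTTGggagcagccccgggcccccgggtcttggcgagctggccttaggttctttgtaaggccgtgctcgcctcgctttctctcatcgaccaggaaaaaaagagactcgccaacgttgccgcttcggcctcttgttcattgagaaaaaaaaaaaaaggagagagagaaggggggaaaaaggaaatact
The Dusp6 promoter held the added ETS string once and the Spry2 promoter held the NKX2 string once, each on the opposite strand. The whole of both windows lay inside accessible regions.

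Of the 36 genes, 20 had an assigned region (55.6%, 95% Wilson interval 39.6 to 70.5), beside 49.3% of 21031 protein-coding genes. A region within 1 kb of its assigned start was found for 17 (47.2%, interval 32.0 to 63.0), beside 40.6% of coding genes. These shares are near the background. The family stood further from the background in its number of regions: 8 genes (22.2%, interval 11.7 to 38.1) had 3 or more, beside 4.96% of coding genes, and 15 (41.7%, interval 27.1 to 57.8) had a region beyond 10 kb, beside 15.2%. Family genes with a region had 2.35 ± 1.31 regions each (SD over 20 genes, with median 2 and maximum 5). All 11539 genes with a region, coding or not, had a mean of 1.49 and a median of 1. Of the coding genes, 10364 had a region, so this baseline is wider than that of the shares above. The intervals cover counting error over genes only. In a mixed dissected tissue, a region carried by fewer cells and a region less open in each cell cannot be told apart.

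**Figure D1:**
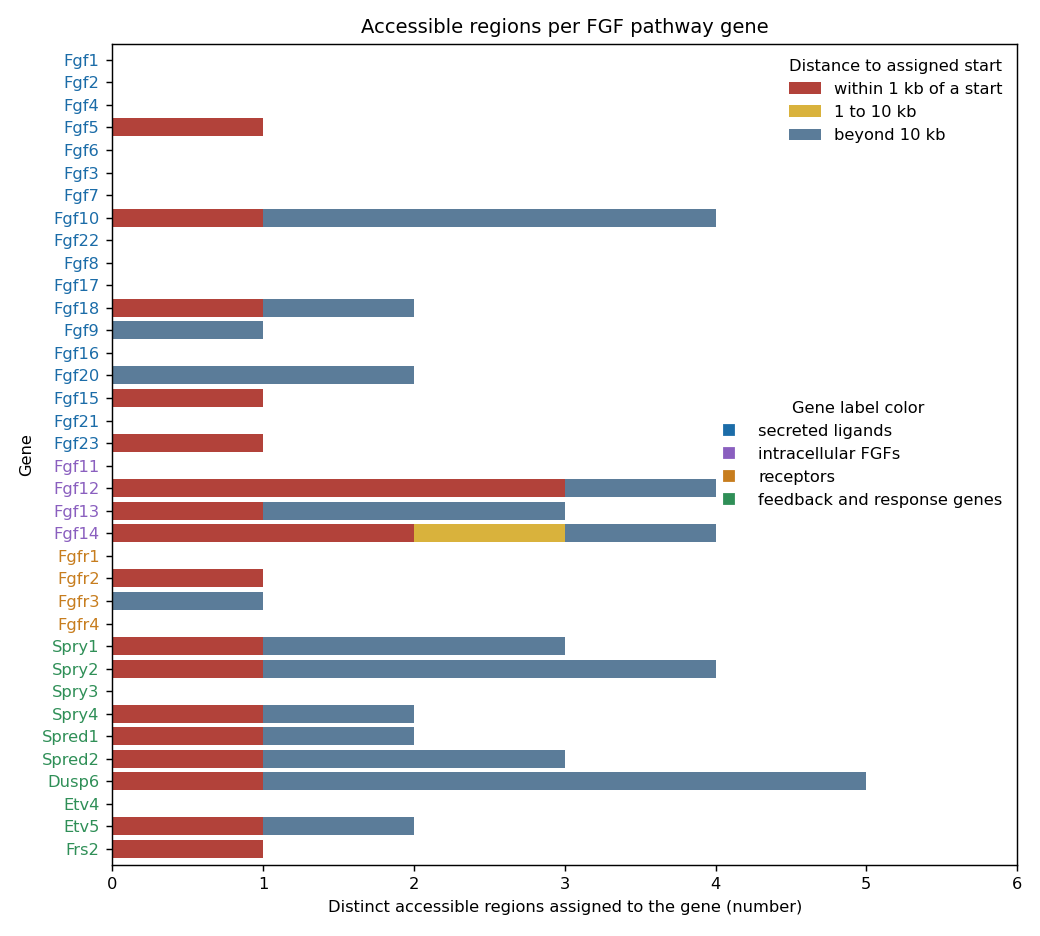
Number of distinct accessible regions assigned to each of the 36 genes (horizontal axis), split by distance to the assigned start; label color gives the gene class. Dusp6 has 5 regions, Fgf10, Fgf12, Fgf14 and Spry2 have 4 each, and 16 genes have none.

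The genes were also counted by class. The background for these counts is 49.3% of coding genes for any region and 40.6% for a start region. Of the 10 feedback and response genes, 8 had a region and all 8 had it at the start. Of the 18 secreted ligands, 7 had a region and 5 of them at the start. The intracellular FGFs contributed 3 of 4 genes, and the receptors 2 of 4. In covered DNA the feedback and response genes held 36903 bp of the family's 68931 bp, the intracellular FGFs 16045 bp, the secreted ligands 14051 bp and the receptors 1932 bp. No test was made between classes, since the genes are not replicates.

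Among the secreted ligands, Fgf10 had the most regions. Fgf10 is a mesenchymal ligand made in the second heart field and needed for limb and lung outgrowth. Its start lay in a region of 3094 bp (chr13:119502292-119505385), which ranked 61 by width among the 9083 regions within 1 kb of a start. A region of 1290 bp lay 44470 bp downstream of the start (chr13:119547332-119548621) and 1 of 643 bp lay 52173 bp downstream, each in an Fgf10 intron. The fourth, of 875 bp, lay 19355 bp upstream, in a noncoding exon where the annotations of Fgf10 and Gm16263 overlap. Regions thus lay on both sides of the Fgf10 start. CpG dinucleotides were sparse in the distal regions, between 0.388 and 0.933 per 100 bp, and the start region had 2.97, beside a median of 5.93 for all start regions.

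Apart from Fgf10, 6 secreted ligands had 1 or 2 regions and 11 had none. Fgf18, a ligand of the FGF8 group active in bone and lung, had a region of 1530 bp whose center was 844 bp upstream of the start and whose edge ended 80 bp short of it, and a region of 636 bp in an intron, 24320 bp downstream. Fgf5, known as a regulator of the hair cycle, had 1 region of 1443 bp over its start (chr5:98682598-98684040). Fgf15, an endocrine ligand that also acts within the embryo, had 1 of 1534 bp (chr7:152080928-152082461) whose edge reached 24 bp past the start. Fgf23, an endocrine regulator of phosphate, had 1 of 765 bp over its start, the narrowest start region in the family, and 2.22% of all start regions were as narrow or narrower. All 4 of these genes therefore had DNA open at or next to the start, and only Fgf18 had a distal region as well.

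Fgf9 and Fgf20, ligands of the FGF9 group, had only distant regions. The region assigned to Fgf9 (641 bp) lay 427524 bp downstream of its start, and the start itself was 70868 bp from the nearest region, at Micu2. Fgf20 had regions of 983 bp and 617 bp, which lay 135820 and 205843 bp downstream in intergenic DNA. A putative alternative Fgf20 transcript begins inside a region assigned to Micu3, so whether that region belongs to Fgf20 depends on the annotation. Of these 3 distant regions, the one of 983 bp exceeded the median of 937 bp for all regions beyond 10 kb, and the others were narrower.

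The intracellular FGFs are not secreted and bind voltage-gated sodium channels. Their genes use several alternative first exons, and the regions lay at more than 1 of these. Fgf12 had 3 start regions, of 1724, 1551 and 1388 bp, each assigned to a different start. Only the first of these was near a start of Fgf12 in GENCODE, 1425 bp away from center to start, and the centers of the others were 119350 and 307991 bp upstream of it. The fourth Fgf12 region, of 772 bp, lay 46817 bp downstream of its assigned start and outside the span of Fgf12 in GENCODE. Fgf14 had a region of 2577 bp over an internal start (chr14:124590076-124592652) and 1 of 1125 bp at its first start, with a region of 946 bp 7200 bp downstream and 1 of 911 bp 65539 bp upstream. The internal start thus had the wider region of the pair. Fgf13 had a region of 2434 bp over a start (chrX:56386348-56388781) and 1 of 1191 bp in an intron, 13176 bp upstream of its assigned start. The remaining Fgf13 region, of 1426 bp (chrX:56819809-56821234), was assigned to a start 18228 bp away but contains a GENCODE start of Fgf13. By GENCODE it is a further start region. Fgf11, the remaining member, had none, and its nearest region, at Chrnb1, was 5725 bp from its start.

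**Figure D2:**
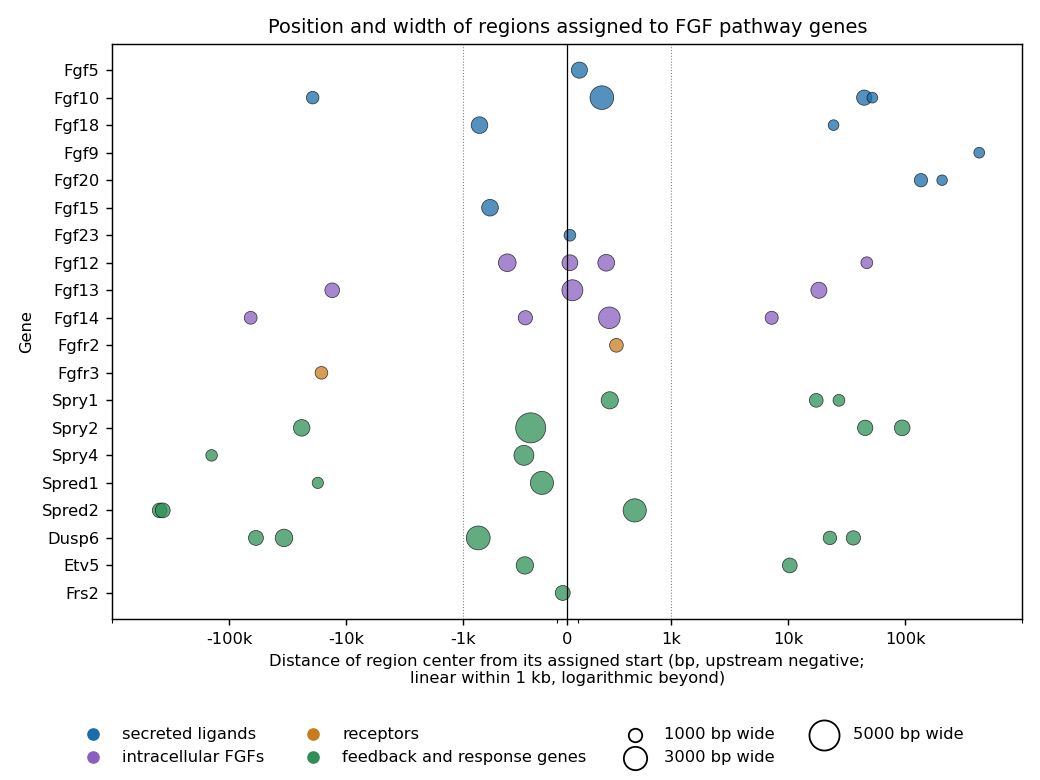
Distance of the center of each of the 47 regions from its assigned start (horizontal axis in bp, linear within 1 kb of the start and logarithmic beyond, upstream negative) for the 20 genes with a region; point area is proportional to region width. The widest point is the Spry2 start region at 4983 bp, and 26 regions lie beyond 10 kb.

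An assigned region was found for 2 of the 4 receptors, beside 49.3% of coding genes. Fgfr2, which responds to ligands such as Fgf10 in epithelia, had 1 region of 1043 bp at a start (chr7:137409329-137410371), and 20.8% of all start regions were as narrow or narrower. Fgfr3, known for restraining bone growth, had 1 region of 889 bp, 16287 bp upstream (chr5:34047642-34048530), and none at a start. Fgfr1, the main receptor of early mesoderm, had no assigned region. The nearest to an Fgfr1 start was a region of 979 bp, 10756 bp away, which lies inside the annotated span of Fgfr1 (chr8:26624126-26686186) but is assigned to Gm16159. Fgfr4 had none either, and its nearest region, assigned to Nsd1, was 21874 bp away. Frs2, the adaptor that couples the receptors to Ras, had 1 region of 1234 bp over its start.

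The 2 widest start regions of the family belonged to feedback genes. At Spry2, which encodes an inhibitor of receptor tyrosine kinase signaling, the start region was 4983 bp wide (chr14:106293897-106298879). It was the widest of the 9083 start regions in the list and ranked 5 of all 17164 regions. It reached from 2843 bp upstream to 2139 bp downstream of the start, and the gene itself is short (chr14:106291166-106296036). The other Spry2 regions lay 24019 bp upstream (1510 bp wide), 45345 bp downstream (1303 bp) and 93842 bp downstream (1365 bp), all in intergenic DNA. Each was at least as wide as 87.3% of regions beyond 10 kb. The center of the upstream region is the Spry2 window printed above.

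Dusp6, the ERK phosphatase, had 5 regions, the most in the family. Its start region was 3141 bp wide (chr10:98723439-98726579) and at least as wide as 99.4% of start regions. Upstream lay a region of 1696 bp at 34022 bp, the widest distal region of the family, and 1 of 1232 bp at 59074 bp. Downstream lay regions of 1005 bp at 22643 bp and 1132 bp at 35917 bp. All 4 distal regions were intergenic and on both sides of a gene that spans chr10:98725865-98730122. The region 59074 bp upstream was nearer to a start of Poc1b, at 11265 bp, than to that of Dusp6.

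Spred1 and Spred2, membrane-associated inhibitors of Ras-MAPK signaling, had start regions of 2944 and 2977 bp. The second Spred1 region (704 bp) lay 17492 bp upstream. Those of Spred2 lay much further out, 369665 bp upstream (1220 bp) and 392850 bp upstream (1192 bp). The nearest coding start to each was still that of Spred2, so no other coding start lay closer. Sprouty proteins, like Spry2 above, act as inhibitors downstream of the receptors. Spry1 had a start region of 1632 bp and regions 17306 bp (1044 bp) and 27041 bp (773 bp) downstream. Spry4 had a start region of 2195 bp, which also contains starts of Arhgap26 and 9630014M24Rik, and a region of 740 bp in an Arhgap26 intron 141379 bp away. The share of Spry4 in this region cannot be told apart from that of its neighbors. Etv5, an ETS factor induced by FGF signals, had a start region of 1672 bp and a region of 1209 bp in its own intron, 10277 bp downstream. Etv4, the related ETS factor, had none: the nearest region, at Dhx8, was 38855 bp from the nearest of its starts and 51984 bp from a start of a coding transcript. Spry3 had none and is not in the GENCODE annotation, so no distance could be given.

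Taken by width, the start regions of the family had a median of 1652 bp (95% interval of the median 1443 to 2577, 20 regions, range 765 to 4983), beside 1294 bp for all 9083. Regions of 2000 bp or more made up 8 of the 20 (40%, interval 21.9 to 61.3), beside 9.97% of all start regions. The 8 belonged to Spry2, Dusp6, Fgf10, Spred2, Spred1, Fgf14, Fgf13 and Spry4, so 5 of them were feedback genes, 2 intracellular FGFs and 1 a secreted ligand. The median start width was 2569.5 bp for feedback and response genes (1234 to 4983), 1637.5 bp for intracellular FGFs (1125 to 2577) and 1530 bp for secreted ligands (765 to 3094). The ranges overlap. Of the 20 start regions, 16 exceeded the median of all start regions. Region width depends on read depth, which is unknown here.

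**Figure D3:**
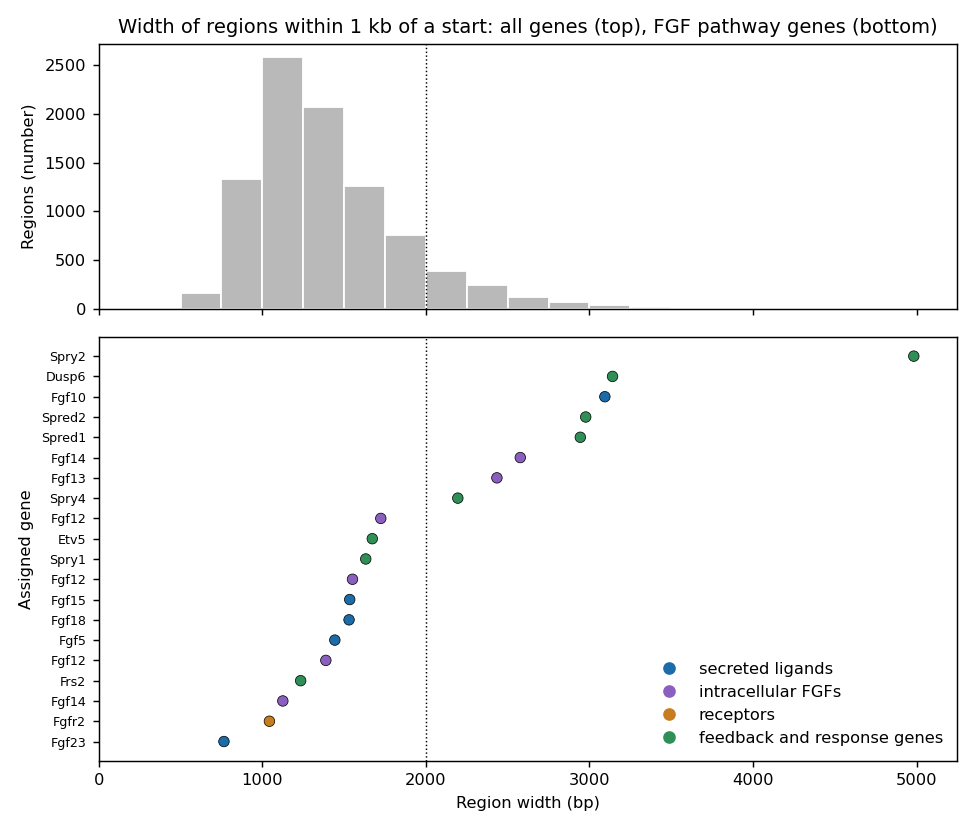
Width in bp of all 9083 regions within 1 kb of an assigned start (top, number of regions per 250 bp) and of the 20 such regions of the family (bottom, 1 point per region, color by class); the dotted line marks 2000 bp. Of the 20 points, 8 lie to the right of the line and Spry2 lies at 4983 bp.

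Away from starts the widths were closer to those of the whole list. Of the 47 regions, 20 (42.6%, interval 29.5 to 56.7) were within 1 kb of a start, beside 52.9% of all regions, 1 was at 1 to 10 kb, and 26 (55.3%, interval 41.2 to 68.6) were beyond 10 kb, beside 39.3%. The 26 belonged to 15 genes, lay upstream in 11 cases and downstream in 15, and 6 were beyond 100 kb. Their median width was 1024.5 bp (interval 773 to 1220), beside 937 bp for all 6740 regions beyond 10 kb, and 15 of 26 exceeded that median. By the place of the center in GENCODE, 18 were intergenic, 6 intronic (5 of them in the gene to which they were assigned), 1 in a noncoding exon and 1 in a UTR exon. The distal Fgf12 region counts as intergenic there, although it lies downstream of its assigned start, which is not a GENCODE start of Fgf12. GC content was 46.4% at the median, beside 46.8% for all such regions, and CpG 1.61 beside 1.25 per 100 bp.

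For 42 of the 47 regions the nearest coding start in GENCODE was that of the assigned gene. The exceptions were the outer upstream region of Dusp6, 1 start region of Fgf12, the Fgf9 region and both Spry4 regions.

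Regions beyond 10 kb were also set beside the room that neighboring genes leave. The distance between the nearest coding starts of other genes on either side had a median of 189323 bp for the family (34 genes), beside 84656 bp for 18089 coding genes. It was 401514 bp for 14 of the 15 family genes with a region beyond 10 kb, and 98238 bp for 20 of those without. The remaining family genes had no such distance and are left out here. Coding genes were split by this distance into 4 groups of equal size. In the group with the most room (193766 bp or more), 42.4% had a region beyond 10 kb, and of the 17 family genes in that group 12 did. In the other groups, in rising order, 0 of 3, 1 of 5 and 1 of 9 family genes had such a region, beside 1.41%, 5.22% and 13.8% of coding genes. Most family genes with distant regions lay in such wide intervals, and the part of this room in their number of distant regions was not tested.

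Secreted ligands made up 11 of the 16 genes without a region, and they are 18 of the 36 genes. A region was assigned to 7 of the 18, beside 49.3% of coding genes. In the embryo Fgf8 patterns pharyngeal arches and outflow tract, and Fgf3, Fgf4 and Fgf17 act in early axis and brain patterning. The nearest region to a start of Fgf8 lay 39644 bp away, at Mgea5. Those of Fgf3 and Fgf4 were 56428 and 33637 bp away, and were in each case the start region of their neighbor Fgf15. Fgf17 was 16279 bp from a region of Npm2. Fgf6, a muscle ligand, was 57003 bp from the start region of its neighbor Fgf23. For Fgf3, Fgf4 and Fgf6 the nearest accessible site was therefore that of a clustered FGF gene. Fgf1, a broadly acting ligand, was 62887 bp from a region of Arhgap26. Fgf7, a keratinocyte growth factor, was 116623 bp from a region of Dtwd1, and Fgf16, a ligand expressed in heart, was 164027 bp from a region of Atrx. Fgf21, an endocrine ligand of liver, was 13022 bp from a region of Rasip1, and Fgf22 was 8092 bp from a region of Polrmt. Of the ligands with no assigned region and no start inside one, Fgf22 alone had a region within 10 kb. Fgf2 differed from the rest: a noncoding Fgf2 transcript starts inside a region of Cetn4 (chr3:37210860-37211866), while the nearest start of a coding Fgf2 transcript was 35402 bp from a region. Over the 15 such genes in GENCODE the median distance was 33637 bp, and for 3 a region lay less than 10 kb from a start. Counted without regard to the assigned gene, family genes had a median of 3 regions within 100 kb of a start (0 to 7, 35 genes), beside 2 for coding genes. Only Fgf7 and Fgf16 had none, beside 14.9% of coding genes. A gene that has no region in this list is not shown to be closed, since a region had to be called in every control library.

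**Figure D4:**
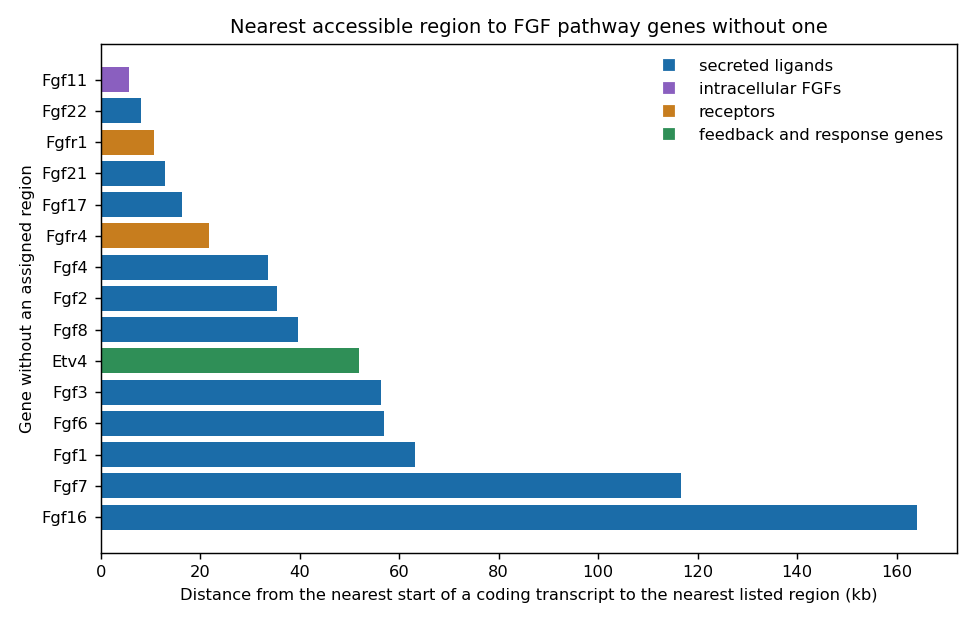
Distance in kb from the nearest start of a coding transcript to the nearest listed region, for the 15 genes without an assigned region that are in GENCODE, colored by class. Fgf11 is nearest at 5725 bp and Fgf16 is farthest at 164027 bp.

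CpG-rich starts are often open whatever the gene does, so the CpG frequency at starts (within 500 bp, highest over the starts of a gene) was set beside the regions. Coding genes with a start region had a median of 6.99 CpG per 100 bp (7595 genes), and those without had 2.30 (10523 genes). In the family the corresponding medians were 7.89 (17 genes) and 7.29 (18 genes), so the median of the family genes without a start region was above that of coding genes with one. Fgf8 had 10.2 and Fgfr1 11.6 CpG per 100 bp, and neither had a region at a start. Among coding genes in the 3 upper deciles (7.19 or more), 65.0% of 5436 had an assigned start region. Of the 19 family genes in those deciles, 10 did. The count was 6 of 7 for feedback and response genes, 2 of 8 for secreted ligands, 1 of 3 for receptors and 1 of 1 for intracellular FGFs. These counts rest on the assigned symbol: Fgf2 and Fgf20, counted here without a start region, each have an annotated start inside a region assigned to a neighbor (Cetn4 and Micu3). At the low end, Fgf23 had a start region at 1.10 CpG per 100 bp, in the second decile, where 3.31% of coding genes had one.

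**Figure D5:**
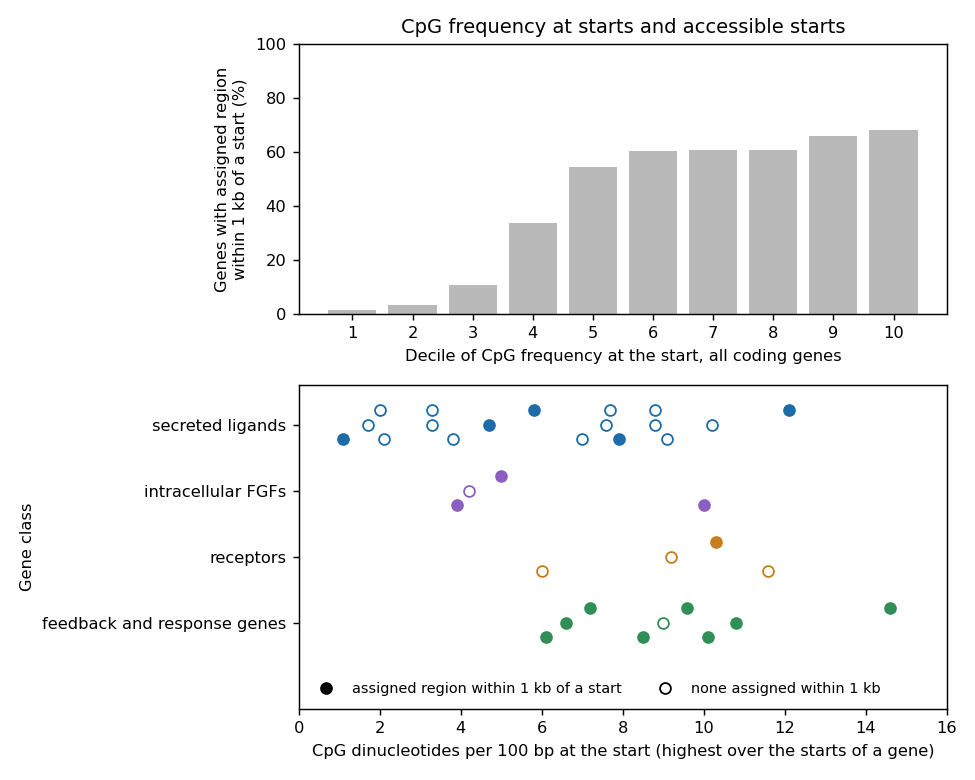
Percent of coding genes with an assigned region within 1 kb of a start, by decile of CpG frequency at the start (top), and CpG per 100 bp at the start of 35 family genes by class (bottom, filled where an assigned region lies within 1 kb of a start). The share rises from 1.27% to 68.2% over the deciles, and the secreted ligands include 8 genes at 7.19 or more of which 2 are filled.

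Short motifs in the central 300 bp were counted beside all regions of the same kind. In regions beyond 10 kb, the GATA-factor string was present in 7 of 26 (26.9%, interval 13.7 to 46.1), beside 15.6% of all such regions. The Isl1 string was present in 4 (15.4%, interval 6.15 to 33.5), beside 810 of 6740. The ETS string CCGGAA was in 3 (11.5%, interval 4.00 to 29.0), beside 6.69%, and the added string AGGAAG in 12 (46.2%, interval 28.8 to 64.5), beside 37.3%. These shares lay above those of all regions, and each interval includes the share of all regions. The NKX2 string was in 3 (11.5%) beside 15.9%, the TEAD string in 5 (19.2%) beside 1552 of 6740, and the T-box string in 0 (interval 0 to 12.9) beside 4.11%. In start regions CCGGAA was present in 4 of 20 (20%, interval 8.07 to 41.6) beside 26.6%, and the Isl1 string in 2 (10%, interval 2.79 to 30.1) beside 2.93%. The GATA-factor string was in 0 of 20 start regions (interval 0 to 16.1), beside 3.23%. For the other strings the shares in start regions were 5% for T-box beside 2.47%, 5% for NKX2 beside 8.64%, 15% for TEAD beside 9.25% and 30% for AGGAAG beside 28.6%. In the central 300 bp no difference in these strings was detectable at 26 and 20 regions. Searched over whole regions, the Isl1 string was in 9 of 20 start regions (45%, interval 25.8 to 65.8), beside 22.4% of all start regions. This interval leaves out the share of all regions. No other interval did so among the strings, distance classes and windows compared, and no allowance was made for the number of comparisons. The start regions of the family were also wider (median 1652 bp, beside 1294 bp), and the part of width in the Isl1 share was not tested.

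Other genes of the pathway were described by the same counts. Of 50 genes in 4 lists, 36 (72%) had a region, beside 49.3% of coding genes, with 79 regions in all. At a start, 30 of the 50 had one, beside 40.6% of coding genes. Among receptor partners and co-receptors 9 of 13 had a region, with Klb, Flrt1, Sdc3 and Sdc4 at 0, and Flrt3 had 15, Kl 4 and Sdc2 4. Flrt3 encodes a membrane protein that binds FGF receptors, and Kl the Klotho co-receptor of endocrine FGFs. Flrt3 alone held 15 of the 79 regions, and the room between neighboring genes is not given here for these lists. Among heparan sulfate enzymes 5 of 7 had a region, with Ext2 and Sulf2 at 0, and Ext1 and Hs2st1 had 5 each and Sulf1 had 4. In the signal relay from Grb2 to ERK 13 of 18 had a region. Among other feedback and target genes 9 of 12 had one, with Dusp4, Dusp9 and Spred3 at 0.

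The tissue label was set against marker genes. Of 13 genes of heart and pharyngeal mesoderm 7 had a region, among them Isl1 with 9, Mef2c with 5 and Tbx20 with 4, whereas Tbx1, Nkx2-5, Gata6, Tbx5, Hand1 and Tcf21 had none. Of other cell types the counts were 5 of 7 neural genes (Sox2 and Neurog1 at 0, Pax6 with 4), 2 of 5 endoderm (Foxa1, Hhex and Nkx2-1 at 0, Foxa2 with 4), 4 of 5 endothelial (Pecam1 at 0), 2 of 4 blood (Gata1 and Spi1 at 0) and 1 of 3 neural crest genes (Sox10 and Tfap2a at 0). The share with a region was 53.8% for heart and pharyngeal mesoderm, 71.4% for neural and 80% for endothelial genes, beside 49.3% of coding genes. It was 50% for blood, 40% for endoderm and 33.3% for neural crest genes. These short lists do not tell the labelled tissue apart from other cell types. Several of these marker genes are shared with the mesoderm, and the part of other cell types in the regions of the FGF genes was not tested.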

How the data were processed

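ATAC-Seq libraries of 3 genotypes, with 3 libraries each, were assigned to groups from their labelled genotype. The authors used bowtie2 to map reads to mm9, filtered for proper pairs with samtools, removed duplicates with Picard 1.136, called peaks in each library with MACS14 without a fragment model, and dropped peaks in the ENCODE blacklist. Common regions of the 3 wild-type libraries were written with bedtools 2.15, where an overlap of 1 bp was enough. The deposited list therefore holds positions and signed distances in bp, with a RefSeq transcript and a gene symbol, and neither peak heights nor values per library. The tool that assigned genes to these regions is not given in the sources used here. The fixed shift and the depth, which is unknown, affect region widths, and each region carries the coordinates of 1 library.

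Of 17432 rows, 17164 were distinct and counted once (51 rows and 47 regions for the FGF genes). Width was end minus start plus 1, and distance classes used the deposited distance (1 kb, 10 kb and 100 kb). Coding genes (21031) were taken from a RefSeq table of GRCm38.p6, which supplied names and gene types but no positions. For bases and exons the NCBIM37 genome (equal to mm9) and GENCODE vM1 were read. Deposited and GENCODE distances differed by at most 100 bp for 31 of the 47 regions, and 16 of the 20 start regions contained a GENCODE start of their gene. The printed sequences were read from NCBIM37. Motif strings were searched on both strands. Intervals are 95% Wilson intervals for shares and binomial order-statistic intervals for medians. No test was made. The signed distance, the motif search and the interval of the median were checked on simulated data, and the other steps were not. All 36 genes were named: those with 3 or more regions region by region, those with 1 or 2 with their place, and those with none by the nearest region. Pathway and marker genes were named where they had none or at least 4, except that some such genes are not reported here by name and remain in the counts. The members, lists and measures were chosen with earlier results of these data known. No column of values was left unmapped (0 columns). Python 3.11.15, numpy 2.4.6, pandas 2.3.3 and scipy 1.17.1 were used.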

Additional observations from a re-analysis of the deposited data

How the results depend on the processing

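Of 49 recomputed values, 35 moved by less than their interval or stayed within 1.5 times the main count. The number of genes with a region was between 15 and 20 under all alternatives run, and the number with a start region between 14 and 17. The 15 came from keeping wider regions only, and the 14 from leaving out Fgf11 to Fgf14, which leaves fewer genes to count. The share of coding genes was not recomputed for these settings, so the ranges do not place the family against coding genes. Among wider regions (the median of the list or more), the FGF genes had 30 regions, 60% of them within 1 kb of a start, with a median width of 1520 bp. This filter raises the median by construction. It also favors start regions, which were wider in the whole list (median 1294 bp, beside 937 bp beyond 10 kb). The share of all regions under this filter was not computed, so the 60% has no background and cannot be set beside the unfiltered 52.9%. Without receptor and predicted genes in the background, 54.1% of coding genes had a region. With motifs searched in whole regions, start regions held the ETS string in 45% (all start regions 56.1%), Isl1 in 45% (22.4%), GATA-factor in 30% (30.2%), T-box in 25% (14.2%), NKX2 in 50% (46.6%) and TEAD in 50% (44.3%). Regions beyond 10 kb held Isl1 in 50% (all such regions 32.9%), GATA-factor in 53.8% (43.6%) and TEAD in 50% (49.9%). They held NKX2 in 26.9% (44.0%), T-box in 11.5% (12.7%) and the ETS string in 19.2% (16.3%). With the ETS string AGGAAG in place of CCGGAA, chosen after seeing the data, the distal share was 46.2%.

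No paired analysis was possible because the values used here are 1 list for the control group, with no value per library. Leaving out a library was not run, for the same reason. Read depth is unknown here, and low depth, the requirement for 3 libraries and the assignment of genes cannot be told apart where a gene has no region.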
